A study of Mus musculus with 15 samples.

Results

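Immune checkpoint and costimulatory genes were examined in EL4 cells as 10 named mouse genes out of 49554 RefSeq genes placed on chromosomes 1 to 19 and X. The list was chosen by name: the inhibitory receptor genes Pdcd1, Ctla4, Lag3, Havcr2, Tigit and Btla, the costimulatory receptor genes Icos, Tnfrsf4 and Tnfrsf9, and the ligand gene Cd274. Earlier results of these data were known when it was chosen. For each gene the RefSeq span on GRCm38 was extended by 10 kb on both sides, and every called interval that touched this window by at least 1 bp was recorded in each replicate. EL4 is an established T lymphoma line of C57BL/6N mice, grown here without any treatment, genetic change or comparison group, so the libraries describe a single line in a single state. The study mapped H3K4me3, H3K9ac, H3K27ac, H3K27me3 and H3K36me2 by ChIP-seq and accessible chromatin by ATAC-seq, with 2 replicates for each of the 6 assays. The replicates were described as technical where peaks were merged, so the spread between them covers the assay and not separate cultures.

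T cells read antigen through the T cell receptor, and a second layer of surface receptors raises or lowers that response. The costimulatory receptors ICOS, OX40 (Tnfrsf4) and 4-1BB (Tnfrsf9) raise it, whereas PD-1 (Pdcd1), CTLA-4, LAG-3, TIM-3 (Havcr2), TIGIT and BTLA lower it, and PD-L1 (Cd274) is the ligand that engages PD-1. Most of these genes are switched on after antigen encounter, and in chromatin terms H3K4me3 marks gene starts, H3K9ac and H3K27ac mark active starts and enhancers, H3K27me3 is the mark of Polycomb silencing, and H3K36me2 covers broad stretches in and between genes.

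The sequences just upstream of 5 gene starts are shown because they carry the contrast described below: called intervals of active marks covered the starts of Pdcd1, Cd274 and Btla, and none reached those of Ctla4 and Tigit. They were taken from RefSeq on GRCm38.p6 and read 5′ to 3′ on the strand of the gene up to the base before the start. Capitals mark CpG dinucleotides. The Pdcd1 sequence lies at chr1:94052554-94052803 on the minus strand, that of Cd274 at chr19:29367293-29367437 on the plus strand (it begins where the span of the neighbouring gene Plgrkt ends), that of Btla at chr16:45224087-45224336 on the plus strand, that of Ctla4 at chr1:60908775-60909024 on the plus strand and that of Tigit at chr16:43664185-43664434 on the minus strand.
Pdcd1: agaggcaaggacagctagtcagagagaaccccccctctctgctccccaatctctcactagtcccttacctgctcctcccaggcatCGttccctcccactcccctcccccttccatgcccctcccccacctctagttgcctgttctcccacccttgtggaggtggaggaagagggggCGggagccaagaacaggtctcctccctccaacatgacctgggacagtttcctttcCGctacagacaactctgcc
Cd274: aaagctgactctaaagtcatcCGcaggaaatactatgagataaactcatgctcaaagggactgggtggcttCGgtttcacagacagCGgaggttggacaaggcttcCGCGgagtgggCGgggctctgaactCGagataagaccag
Btla: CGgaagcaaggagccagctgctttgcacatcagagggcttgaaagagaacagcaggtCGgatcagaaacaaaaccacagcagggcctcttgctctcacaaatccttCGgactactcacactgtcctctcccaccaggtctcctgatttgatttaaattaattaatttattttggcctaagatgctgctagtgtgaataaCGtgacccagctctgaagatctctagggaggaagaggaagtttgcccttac
Ctla4: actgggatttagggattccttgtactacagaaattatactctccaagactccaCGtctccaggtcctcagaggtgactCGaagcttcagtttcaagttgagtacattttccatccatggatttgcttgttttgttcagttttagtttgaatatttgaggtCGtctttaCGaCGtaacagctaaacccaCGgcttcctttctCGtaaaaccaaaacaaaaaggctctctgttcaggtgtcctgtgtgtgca
Tigit: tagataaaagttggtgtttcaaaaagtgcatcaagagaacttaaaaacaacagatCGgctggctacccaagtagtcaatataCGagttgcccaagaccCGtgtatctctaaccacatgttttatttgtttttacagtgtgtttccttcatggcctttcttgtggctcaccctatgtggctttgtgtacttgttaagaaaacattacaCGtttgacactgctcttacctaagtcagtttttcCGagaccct

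Over the full RefSeq promoter entries (250 bases before to 50 after the start), 9 sequences matched 8 of the members, since Tnfrsf9 has 2 listed starts, and Icos and Lag3 had no entry. Across all 32851 mouse promoter entries the median CpG count was 7. The Cd274 promoter held 15 CpGs with an observed over expected ratio of 0.722, the highest of the members, and the share of all promoters with more CpGs was 33.0%. The Pdcd1 promoter held 5 CpGs at a ratio of 0.190, although its GC content was 60.7%. The Ctla4 promoter, with 8 CpGs and a ratio of 0.609, had no active mark at its start and was richer in CpG than those of Pdcd1 and Btla (5 CpGs, ratio 0.278), which had them.

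Short motifs were searched on both strands of the same entries. The NFAT core GGAAA occurred in 7 of the 9 member promoters, those of Pdcd1, Ctla4, Tigit, Cd274 and Tnfrsf4 and both of Tnfrsf9, and in 61.3% of all promoters. The AP-1 motif TGANTCA occurred in 2 (Havcr2 and Tnfrsf9, 7.81% of all), the RUNX motif TGTGGT in 4 (Havcr2, Tigit, Tnfrsf9 and Btla, 16.8%), the TCF/LEF motif TCAAAG in 3 (Ctla4, Cd274 and Tnfrsf9, 16.0%) and the GC box GGGCGG, which itself holds a CpG, in 3 (Pdcd1, Cd274 and Tnfrsf9, 35.7%). The TATA box TATAAA occurred in the Ctla4 promoter alone among the members and in 13.6% of all promoters. A match is a string of letters and was not read as a bound site.

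The 12 interval lists held between 17519 (ATAC-seq, replicate 1) and 46015 (H3K27me3, replicate 1) intervals, with median widths of 418 bp (ATAC-seq, replicate 1) to 5799 bp (H3K27me3, replicate 2). They carry positions only, so read depth, peak height and enrichment are unknown, and an interval says that a threshold was passed and not by how much. Cell type marker genes were also counted. The active class defined below held 8 of 8 T cell, 1 of 5 B cell, 3 of 5 myeloid and 1 of 3 NK cell markers. It held 32.3% of all genes and 49.1% of protein-coding genes. A window can take its class from a neighbouring gene. The marker lists were chosen with earlier results of these data known, so the counts do not test the T cell label.

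A mark was called present at a locus where both replicates had an interval in the window. By this rule H3K4me3 was present at 8 of the 10 members, with 37.9% of all genes as the background. H3K9ac was present at 7 (36.5% of all genes) and H3K27ac at the same 7 (38.1%), namely Pdcd1, Lag3, Havcr2, Cd274, Tnfrsf4, Tnfrsf9 and Btla. H3K27me3 was present at 2, Icos and Havcr2 (23.1%), H3K36me2 at 6 (38.4%) and ATAC-seq at 5 (34.3%). Member windows were longer than most, with a median of 46.0 kb against 26.0 kb for all genes and 37.3 kb for the 21631 protein-coding genes, and a longer window has more room for an interval. Among protein-coding genes the shares were 57.7% for H3K4me3, 56.3% for H3K9ac, 57.6% for H3K27ac, 24.3% for H3K27me3, 53.8% for H3K36me2 and 53.7% for ATAC-seq. The members' median coverage by H3K27ac was 5.60% of the window, compared with 0% for all genes and 1.56% for protein-coding genes.

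**Figure D1:**
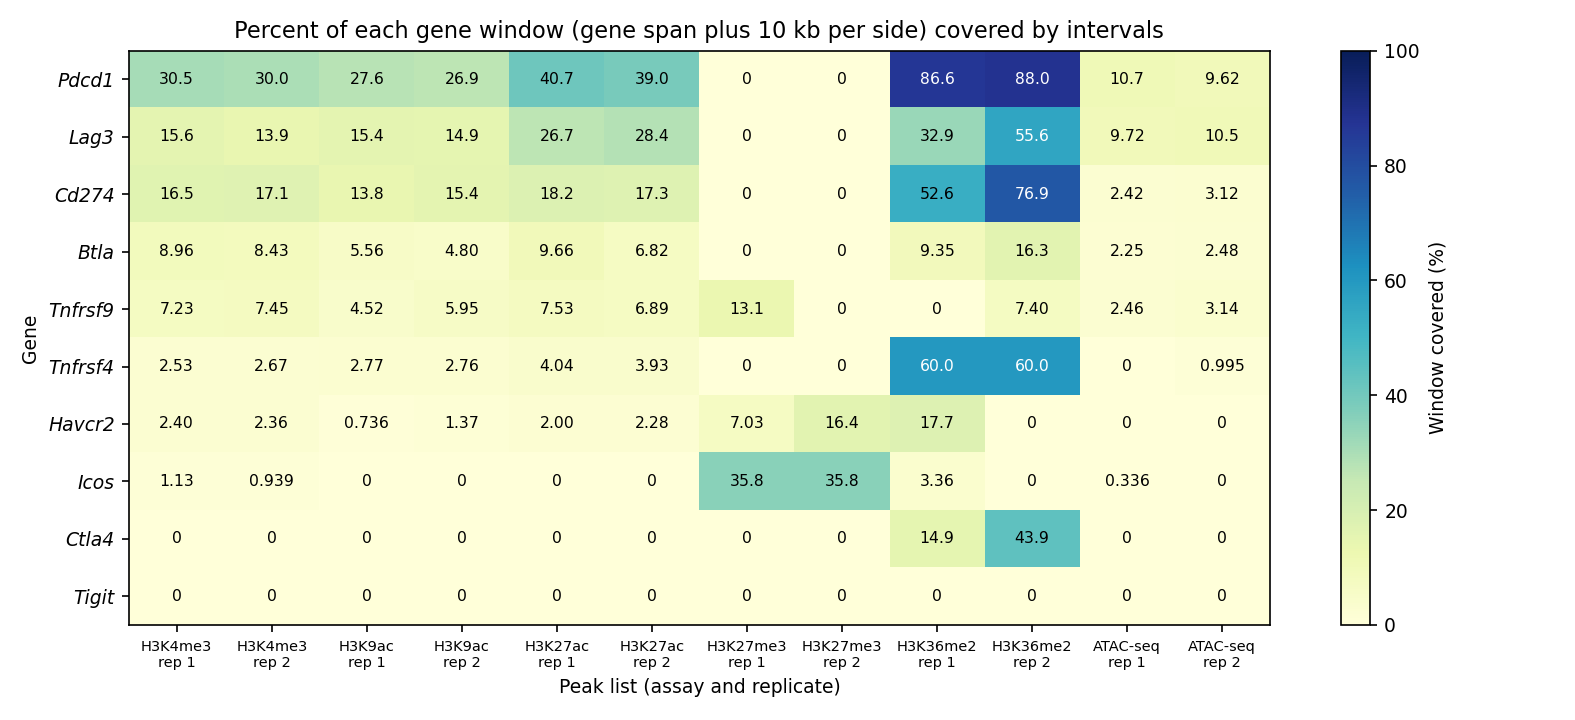
Percent of each gene window (gene span plus 10 kb per side) covered by called intervals, for the 10 genes in rows and the 12 interval lists (assay and replicate) in columns, with each value printed in its cell. Pdcd1 had the highest values for all 3 active marks, 39.0% to 40.7% for H3K27ac, and the row of Tigit is 0 throughout.

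The loci were then sorted into classes. Loci with H3K4me3 and acetylation but no H3K27me3 were called active, and this class held 6 members, Pdcd1, Lag3, Cd274, Tnfrsf4, Tnfrsf9 and Btla, whereas it held 32.3% of all genes and 49.1% of protein-coding genes. Havcr2 alone had H3K4me3, acetylation and H3K27me3 in 1 window, a class of 4.21% of all genes and 7.19% of protein-coding genes. Icos was the member of the H3K27me3 class (18.9% and 17.1%), defined by H3K27me3 without the pair of H3K4me3 and acetylation, so that either of these alone may occur in it. Icos itself had H3K4me3 and no acetylation. Tigit had no interval in any of the 12 lists (26.3% and 15.3%). Ctla4, with H3K36me2 as its only mark, fell among the remaining genes (18.3% and 11.3%). No test was run on these counts, since the list was chosen by name and with earlier results of these data known.

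At the gene starts themselves the members split differently. In a window from 3 kb upstream to 2 kb downstream, H3K4me3 was present at 3 of the 8 members with a listed start, and so were H3K9ac, H3K27ac and ATAC-seq, in each case Pdcd1, Cd274 and Btla. The same window was positive for H3K4me3 in 36.2%, for H3K9ac in 35.7%, for H3K27ac in 36.2% and for ATAC-seq in 32.3% of the 26794 genes with a listed start. H3K36me2 was present at the starts of Pdcd1, Cd274 and Tnfrsf4 (23.4% of genes), and H3K27me3 at none of the 8 (11.0% of genes). Of the 6 active members, 3 therefore had active marks over the start, Tnfrsf4 and Tnfrsf9 had them elsewhere in the window, and the start of Lag3 was not listed.

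Among the inhibitory receptors, Pdcd1 had the most extensive active marks. Pdcd1 encodes PD-1 and spans chr1:94038305-94052553 on the minus strand. H3K27ac covered 40.7% of its window in replicate 1 and 39.0% in replicate 2, and only 0.129% and 0.245% of protein-coding genes had a higher share. H3K4me3 covered 30.5% and 30.0%, and H3K9ac covered 27.6% and 26.9%. The replicates differed by less than 2 percentage points for each of these marks, and no H3K27me3 interval lay closer than 759 kb (replicate 2) or 832 kb (replicate 1).

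Positions are given below in base pairs from the first base of the gene, negative when upstream. The widest H3K4me3 interval of Pdcd1 ran from -2650 to 2397 in replicate 1 and from -2635 to 2375 in replicate 2, and 0.985% and 0.954% of all H3K4me3 intervals were wider. H3K9ac and H3K27ac intervals covered the same stretch, and a further group of intervals of all 3 marks lay downstream of the gene, for H3K4me3 from 16166 to 18163 in replicate 1 and from 16128 to 18158 in replicate 2. H3K27ac also occurred away from the other active marks: 8 of its 13 intervals in replicate 1 and 6 of its 10 in replicate 2 did not touch both of the others. These lay in the 3′ part of the gene, between the gene and the downstream group, and upstream of the start.

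ATAC-seq gave 5 accessible sites at Pdcd1 in either replicate, and all 5 were found in both. The site over the start ran from -290 to 227 in replicate 1 and from -407 to 210 in replicate 2. The site furthest upstream, from -3575 to -2930 and from -3383 to -2993, touched H3K27ac and H3K36me2 but neither H3K4me3 nor H3K9ac. The widest site, from 16188 to 17722 and from 16129 to 17716, lay in the group of active marks beyond the gene end, and its width of 1535 and 1588 bp was exceeded by 0.434% and 0.561% of all ATAC-seq intervals. H3K36me2 covered 86.6% and 88.0% of the window with a gap at the start, from -848 to 754 in replicate 1 and from -248 to 1754 in replicate 2, so the first base lay outside this mark. The neighbouring gene Neu4, a sialidase gene, touches the window by its 3′ end, and its own start had H3K36me2 and none of the active marks.

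Btla, the gene of an inhibitory receptor for HVEM, lies at chr16:45223705-45252895. Its start was covered by H3K4me3 from -1404 to 1583 in replicate 1 and from -1293 to 1943 in replicate 2, by H3K9ac from -1291 to 1443 and from -1236 to 1126, and by H3K27ac from -1703 to 1101 and from -1400 to 1271. The accessible site at Btla ended before the first base, running from -684 to -24 and from -659 to -22. A second accessible site near the gene end, from 27630 to 28077 and from 27553 to 28133, touched H3K4me3 and H3K27ac in both replicates and H3K9ac in neither. In total H3K4me3 covered 8.96% and 8.43% of the window and H3K27ac 9.66% and 6.82%, less than at Pdcd1, and no other protein-coding gene touches the window of Btla. H3K36me2 covered 9.35% and 16.3% of it, and only the intervals beyond the 3′ end overlapped between replicates.

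Lag3, whose product binds MHC class II, lies at chr6:124904359-124912434. Since its start is not listed, positions here are counted from the lower-coordinate end of the span. Active intervals formed 3 groups, over the lower end (H3K4me3 from -883 to 426 in replicate 1 and from -799 to 468 in replicate 2), outside that end (H3K27ac from -4902 to -1582 and from -4974 to -1634), and near the start of the neighbouring gene Ptms, which encodes parathymosin (H3K4me3 from 12015 to 14287 and from 11930 to 14265). In the group outside the lower end H3K4me3 was called in replicate 1 only, as an interval of 372 bp. H3K27ac covered 26.7% and 28.4% of the Lag3 window, H3K4me3 15.6% and 13.9%, and ATAC-seq gave 6 sites in both replicates, 3 of them near Ptms. Counting only intervals closer to Lag3 than to any other protein-coding gene left Lag3 in the active class. This rule goes by distance alone and does not show that the intervals belong to Lag3. Whether the lower-coordinate end is the start or the 3′ end of Lag3 was not listed.

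**Figure D2:**
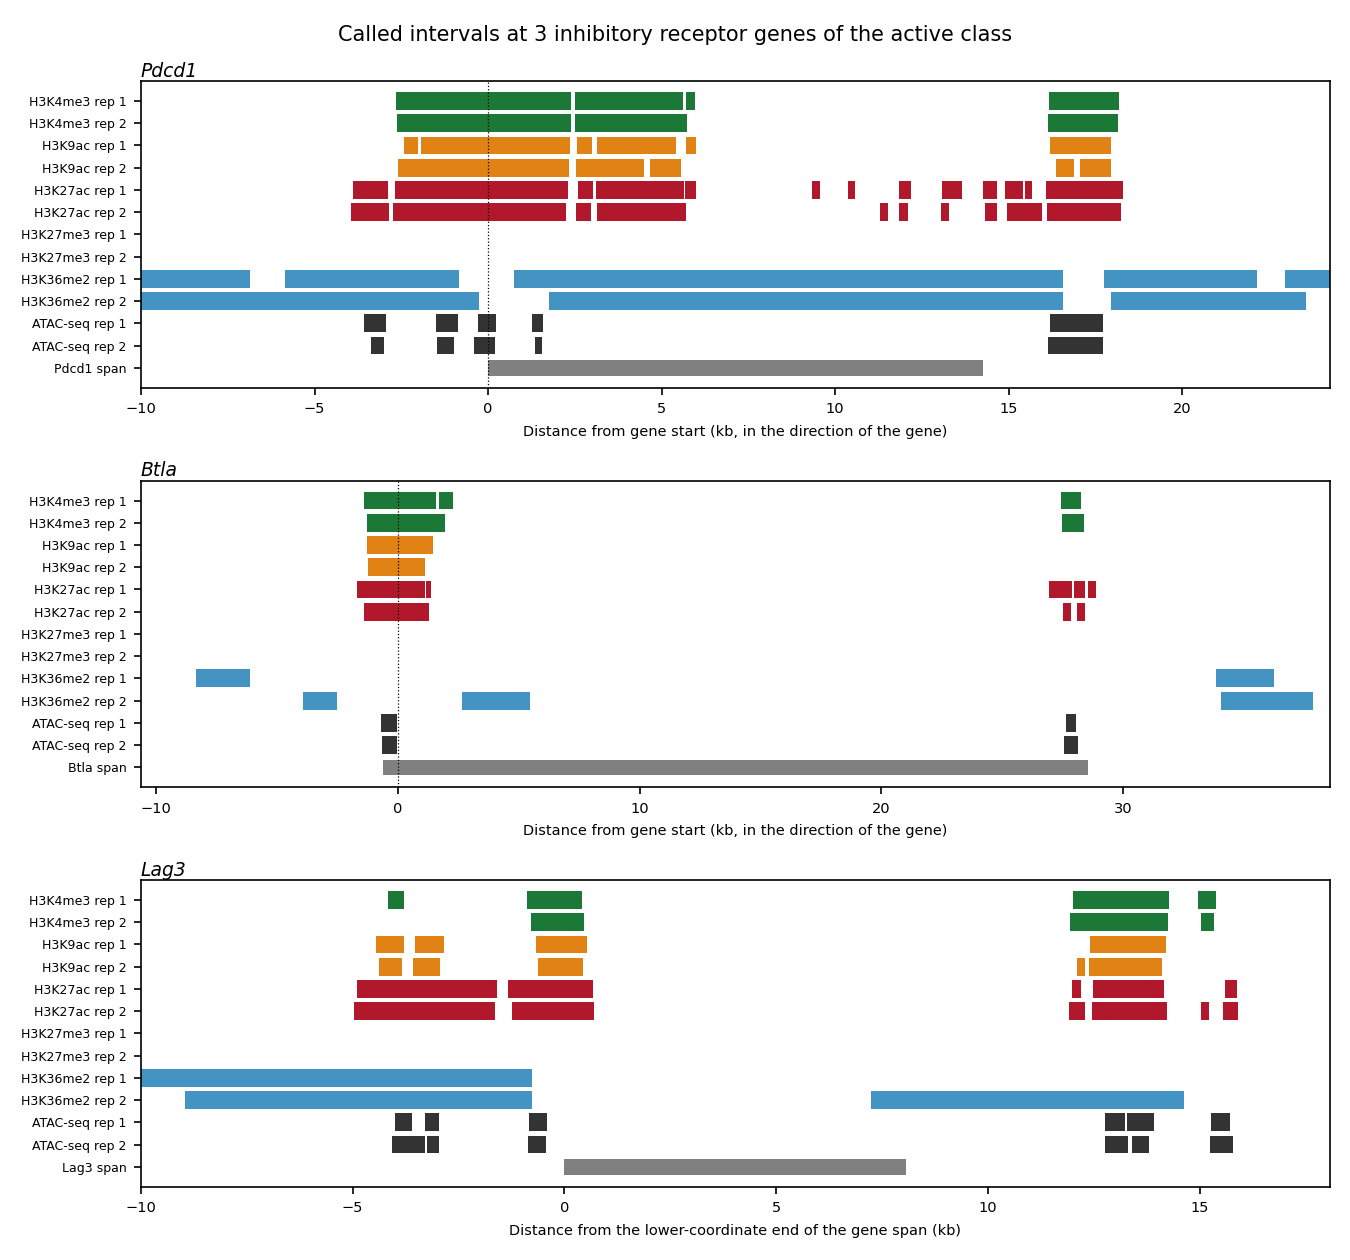
Called intervals in the windows of Pdcd1, Btla and Lag3, with 1 row per assay and replicate and the gene span in grey. The horizontal axis is the distance in kb from the gene start (dotted line) or, for Lag3, from the lower-coordinate end of the span. Pdcd1 and Btla had H3K4me3, H3K9ac and H3K27ac across the start in both replicates, and Lag3 had them over its lower-coordinate end and beyond both ends.

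Havcr2, the gene of TIM-3, was the member with both kinds of marks, and they lay at opposite ends of its window (gene span chr11:46454931-46481255). The H3K4me3 interval ran from -7249 to -6136 in replicate 1 and from -7231 to -6137 in replicate 2, together with short H3K9ac and H3K27ac intervals, and the nearest protein-coding gene was Med7, a Mediator subunit gene that does not reach the window and was named after the values were seen. At the Havcr2 start, 1 H3K27ac interval of 202 bp was called in replicate 1 only. H3K27me3 covered 7.03% and 16.4% of the window, on the 3′ side from 33070 in replicate 1 and from 26070 in replicate 2. No ATAC-seq interval lay closer than 17.7 kb. H3K36me2 covered the start in replicate 1, from -6530 to 1668, and was not called in the window in replicate 2.

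Ctla4 encodes the receptor that competes with CD28 for its ligands. None of the active marks, H3K27me3 or ATAC-seq was called within 10 kb of Ctla4 (chr1:60909025-60915832) in either replicate. H3K36me2 covered 14.9% of the window in replicate 1, from -5224 to -1226, and 43.9% in replicate 2, with 1 interval ending at -3826 and 1 beginning at 6176. The spread between these replicates, 29.4% ± 20.5 (mean ± SD, n = 2), was the largest of any member and mark. The nearest H3K27ac interval was 48.2 kb away in both replicates, and the nearest H3K4me3 and H3K27me3 intervals, at 74.2 and 73.2 kb in replicate 1, were those within Icos.

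Tigit, an inhibitory receptor gene for nectin family ligands, had no called interval at all in its window of 58989 bp around chr16:43626137-43665125. The stretch free of all 12 lists was 115 kb long. It was bounded 50.7 kb before the lower-coordinate end of the gene by H3K27ac in replicate 2 and 25.2 kb after the upper end by ATAC-seq in replicate 2. H3K36me2 was further away than any other mark, at 205 and 210 kb. The span of Zbtb20, a zinc finger repressor gene, reaches into that of Tigit by its 3′ end.

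**Figure D3:**
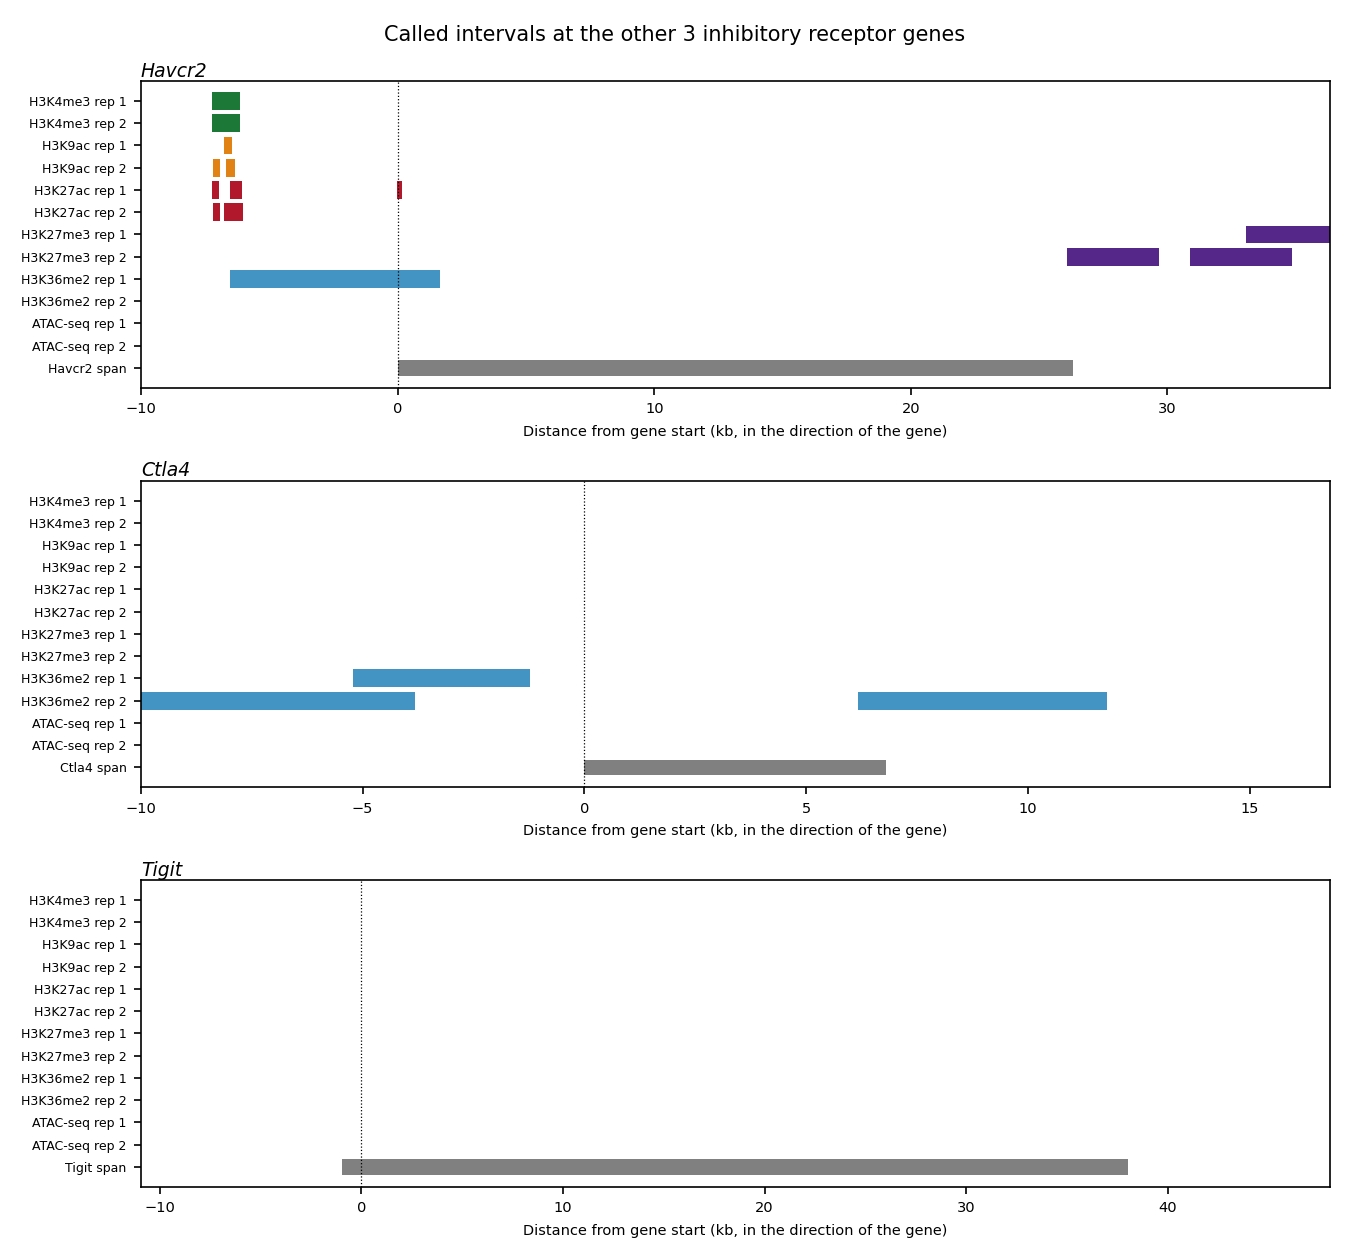
Called intervals in the windows of Havcr2, Ctla4 and Tigit, drawn as distance in kb from the gene start (dotted line) with 1 row per assay and replicate and the gene span in grey. Havcr2 had active marks about 7 kb upstream and H3K27me3 at the other end, Ctla4 had H3K36me2 only, and Tigit had none.

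Cd274 encodes PD-L1 and spans chr19:29362107-29388095 on the plus strand. Its start, at position 29367438, was covered in both replicates by all 3 active marks and by ATAC-seq. The span of the neighbouring gene Plgrkt, on the minus strand, ends just before this start, at 29367292. The intervals of the 3 active marks over the start had their midpoints inside both spans, so they cannot be assigned to Cd274 alone. H3K4me3 ran from -1419 to 971 in replicate 1 and from -1450 to 989 in replicate 2, and the accessible site from -253 to 111 and from -274 to 250. Active marks recurred inside the gene at 2 places. The first group, for H3K4me3 from 3859 to 5520 and from 3893 to 5516, had no ATAC-seq interval, and the second, from 16001 to 17095 and from 16011 to 17129, held an accessible site in each replicate.

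In total H3K4me3 covered 16.5% and 17.1% of the Cd274 window, H3K9ac 13.8% and 15.4%, and H3K27ac 18.2% and 17.3%. Part of this belongs to the start of Plgrkt, a plasminogen receptor gene on the other strand, where H3K4me3 ran from -6308 to -4923 and from -6224 to -4953, and a shorter H3K4me3 interval lay further into Plgrkt, from -12397 to -11673 and from -12362 to -11666. H3K36me2 covered 52.6% and 76.9% of the window and spared the first base in both replicates. The nearest H3K27me3 intervals lay 19.5 and 17.7 kb from the gene, outside the window.

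The costimulatory receptor Tnfrsf4 (OX40, chr4:156013595-156016613) had no active mark of its own. All H3K4me3, H3K9ac and H3K27ac intervals of its window lay at the start of Tnfrsf18, the gene of the related receptor GITR, with H3K4me3 from 12336 to 13124 in replicate 1 and from 12304 to 13046 in replicate 2. The distance from the Tnfrsf4 span to the nearest active interval was 9.07 kb in replicate 1 and 9.10 kb in replicate 2, both H3K27ac, close to the edge of the 10-kb flank. H3K36me2 covered 60.0% of the window in both replicates, over all of the gene in replicate 1 and all but its first bases in replicate 2. The 3′ end of Sdf4, a calcium-binding protein gene, overlaps the first bases of the span.

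Tnfrsf9 (4-1BB, chr4:150920155-150946104) was in the active class with no interval of any list in the start window of either listed start. Its active marks lay upstream and within the gene. Upstream, H3K4me3 ran from -6606 to -4445 in replicate 1 and from -6609 to -4381 in replicate 2, with H3K9ac, H3K27ac and an accessible site, and a further group, for H3K4me3 from -11271 to -9840 and from -10038 to -9827, lay at the edge of the window. For both groups the nearest protein-coding gene by most intervals was Park7, the gene of the redox protein DJ-1, named after the values were seen. Within Tnfrsf9, H3K4me3 ran from 19784 to 20515 and from 19783 to 20470 with an accessible site from 19980 to 20323 and from 20057 to 20322, and a smaller H3K4me3 interval, from 17619 to 17886 and from 17735 to 18064, lay beside it. H3K9ac was called at these inner places in replicate 2 only. H3K27me3 was called in replicate 1 only, as an interval of 5999 bp beyond the 3′ end that covered 13.1% of the window.

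Icos (chr1:60960773-61000322) carried H3K4me3 inside a domain of H3K27me3. The H3K27me3 interval was 41.2 kb wide in replicate 1 and 23.2 kb in replicate 2, both beginning at the same base, and covered 35.8% of the window in each. Only 0.204% and 3.07% of all H3K27me3 intervals were wider. The H3K4me3 intervals were 670 and 559 bp long, and 72.7% and 77.6% of all H3K4me3 intervals were wider. An ATAC-seq interval of 200 bp lay within the H3K4me3 interval in replicate 1 and none was called in replicate 2. No acetylation was called in the window, the nearest H3K27ac interval being 99993 bp away in replicate 1 and 99985 bp in replicate 2. H3K36me2 covered 3.36% of the window in replicate 1 and was not called in replicate 2.

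This combination was uncommon: of all H3K4me3 intervals, 198 (1.07%) in replicate 1 and 214 (1.18%) in replicate 2 touched H3K27me3, and 81 (0.436%) and 89 (0.491%) did so without touching acetylation. The same presence of the 6 assays was found at 186 other genes, of which 99 code for proteins. The lists come from whole cultures, so both marks on the same alleles and each mark in a different share of the cells cannot be told apart.

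**Figure D4:**
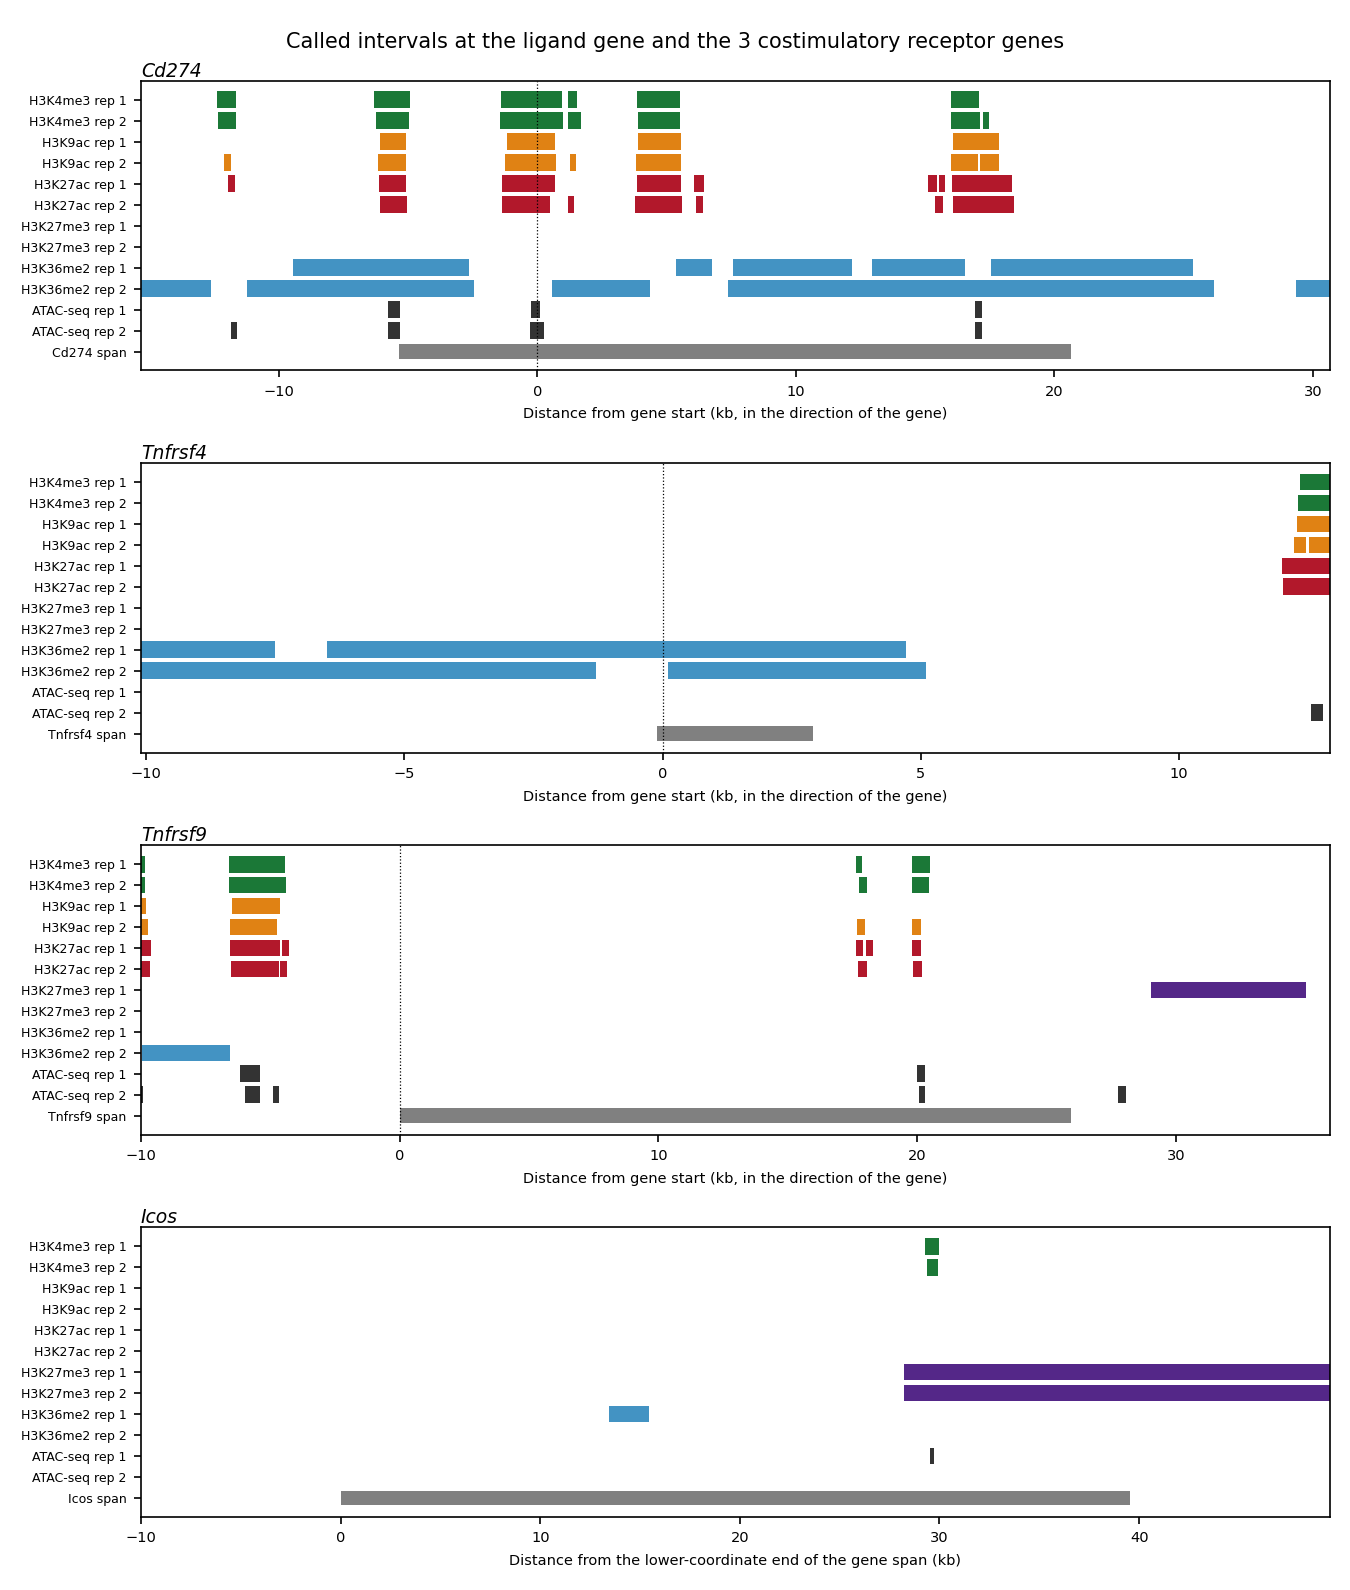
Called intervals in the windows of Cd274, Tnfrsf4, Tnfrsf9 and Icos, with 1 row per assay and replicate and the gene span in grey. The horizontal axis is the distance in kb from the gene start (dotted line; for Tnfrsf9 the first listed) or, for Icos, from the lower-coordinate end of the span. Cd274 had active marks over its start and at 2 places inside the gene, those of Tnfrsf4 lay at the neighbouring Tnfrsf18, those of Tnfrsf9 lay upstream and within the gene, and Icos had a narrow H3K4me3 interval in a wide H3K27me3 domain.

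Accessible sites of the members were compared with the marks around them. Of 20 ATAC-seq intervals in the 10 windows in replicate 1 and 23 in replicate 2, 14 and 16 touched H3K4me3, H3K9ac and H3K27ac of the same replicate, 8 and 12 touched H3K36me2, and 1 and 0 touched H3K27me3, the single one being that in Icos. Of all ATAC-seq intervals, 76.0% in replicate 1 and 72.7% in replicate 2 touched the same 3 active marks, 28.6% and 26.0% touched H3K36me2, and 0.736% and 0.898% touched H3K27me3. Replicates agreed more for the narrow marks than for the broad ones: the base pairs shared by both replicates, as a share of those covered in either, were 0.907 for H3K4me3, 0.833 for H3K9ac, 0.822 for H3K27ac, 0.713 for ATAC-seq, 0.636 for H3K27me3 and 0.538 for H3K36me2 within the windows. H3K4me3, H3K9ac and H3K27ac were called at the same members in either replicate and in both, while H3K36me2 was called at 9 members in either replicate and at 6 in both.

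H3K36me2 and ATAC-seq did not define the active class and were counted within it. H3K36me2 was present in both replicates at 5 of the 6 active members, and its mean coverage of the window over both replicates ranged from 3.70% (Tnfrsf9, replicate 2 only) to 87.3% (Pdcd1) across the 6. Among the other 4 it was present in both replicates at Ctla4 only. ATAC-seq was present in both replicates at 5 of the 6 active members, all but Tnfrsf4, and at none of the other 4. Over all protein-coding genes H3K36me2 was present at 53.8% and ATAC-seq at 53.7%. Their shares within each class over all genes were not computed, so the split is not shown to be particular to the members. With 10 genes and shared neighbours these are counts and were not tested.

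The same rule was applied to 38 other genes of costimulation and coinhibition. Of 17 receptor genes, 10 were in the active class, 1 had H3K4me3, acetylation and H3K27me3, none was in the H3K27me3 class, none was unmarked, and 6 were among the remaining genes. The 17 and the 10 include Laptm5, which was listed with the receptors but is not itself a receptor gene. The active share of 58.8% stood beside 49.1% of protein-coding genes, and the share of the remaining genes, 35.3%, beside 11.3%. The class with both kinds of marks held 5.88% beside 7.19%. The H3K27me3 and unmarked classes held 0% each, beside 17.1% and 15.3%. The active genes with the highest H3K27ac coverage of the window, as the mean of both replicates, were Cd27 (34.6%), a costimulatory receptor of the TNF receptor family, Laptm5 (24.3%), a lysosomal protein that lowers T cell receptor levels, Cd5 (22.2%), a negative regulator of T cell receptor signalling, Cd28 (18.6%), the main costimulatory receptor, Tnfrsf18 (14.9%) and Cd2 (13.8%), an adhesion and costimulatory receptor. The Cd28 window lies on the same chromosome as Ctla4 and Icos, its closest relatives, and unlike theirs it held acetylation in both replicates.

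Of 21 ligand genes, 8 were in the active class, 9 in the H3K27me3 class, 2 were unmarked and 2 were among the remaining genes. The active share was 38.1% beside 49.1% of protein-coding genes, and the H3K27me3 share 42.9% beside 17.1%. The unmarked and remaining shares were 9.52% each, beside 15.3% and 11.3%. The H3K27me3 class held Cd86, Cd276 and Vtcn1 of the B7 family, to which PD-L1 also belongs, and Tnfsf4, Tnfsf18 and Tnfsf14 of the TNF family. It also held the nectin genes Nectin2 and Nectin3, and Fgl1, a ligand of LAG-3. Tnfsf4 encodes the ligand of OX40, and H3K27me3 covered 15.0% and 16.8% of its window. Tnfsf18 encodes the ligand of GITR and had the highest share, 72.8% and 64.3%. The ligand genes Tnfsf8 and Cd70 had no interval in any list, and like Tigit they were thus unmarked. In the H3K27me3 class, Cd276 and Nectin2 also had H3K27ac and Tnfsf4 also had H3K4me3 in both replicates. The classes of receptors and ligands were not compared by a test, and some windows overlap, such as those of Tnfrsf4 and Tnfrsf18.

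**Figure D5:**
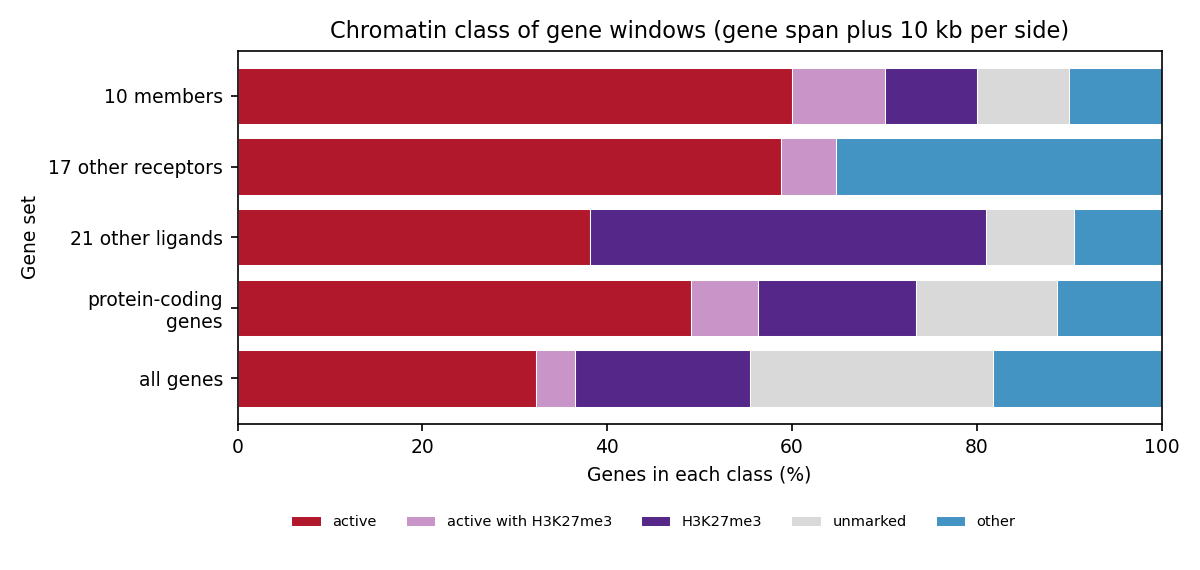
Share of genes in each chromatin class in percent, for the 10 members, 17 other receptor genes, 21 other ligand genes (plus-10-kb windows throughout), protein-coding genes and all genes, as stacked bars from 0 to 100%. The active class held 6 of the 10 members, 58.8% of the other receptors and 38.1% of the other ligands. The H3K27me3 class (H3K27me3 without the pair of H3K4me3 and acetylation) held 42.9% of the other ligands, 0% of the other receptors and, among the members, the receptor gene Icos.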

How the data were processed

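The authors aligned ChIP-seq and ATAC-seq reads of EL4 cells to GRCm38 with STAR 2.5, removed PCR duplicates with Picard and called intervals separately in each replicate. They used Epic, which works in bins of 200 bp, for the broad marks H3K27me3 and H3K36me2 and macs2 for the other assays, with input as the ChIP-seq control. The deposited lists hold chromosome, start and end alone, with no score, count or signal. The paper reports leaving out reads on chromosomes X and Y. The lists nevertheless hold intervals on chromosome X, and these were kept. Neither the input nor the RNA-seq samples were used here.

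Gene spans came from RefSeq (GRCm38.p6). For each gene, span plus 10 kb per side, the intervals touching by at least 1 bp and the covered share were computed per replicate with Python 3.11.15 and numpy 2.4.6. Counting was checked against bedtools 2.31.1 in 600 windows, with 0 differing. Depth is unknown, no condition was compared and no test was run. The members and the other gene lists were chosen with earlier results of these data known. The genes named were the 10 members, protein-coding genes touching their windows and, of the 38 others, those of the H3K27me3 and unmarked classes and the 6 active ones with the most H3K27ac; other names are identified where they occur. Alternatives changed the window, the replicate rule and the interval width.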

Additional observations from a re-analysis of the deposited data

How the results depend on the processing

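Of 30 recounts of the active, H3K27me3 and unmarked classes under 10 alternatives, 27 stayed within 1.5 times the count reported and 3 did not. The other classes were not among these 30 and moved more often. The class with both kinds of marks, 1 member, ranged from 0 to 2, and the remaining genes, 1 member, ranged from 1 to 3. The active class, 6 members, ranged from 4 (window limited to the gene start, or to either end of the span for Lag3 and Icos, whose start is not listed) to 6. The 4 were Pdcd1, Cd274, Btla and, by its lower-coordinate end, Lag3. Beyond the upper-coordinate end of Lag3 the first interval began 3.84 kb away. Which end is the start was not listed, so the class of Lag3 in this setting does not show active marks at its start. Icos kept its class in this setting by H3K27me3 at its upper-coordinate end, which is likewise not shown to be its start. Among members with a listed start, 3 had active marks there. Without replicate 1 or without replicate 2 it held 5 to 6, and the H3K27me3 and unmarked classes held 1 each; without replicate 2, Tnfrsf9 moved to the class with both kinds of marks. The unmarked class rose to 2 when only the gene start was counted, which added Tnfrsf9. The H3K27me3 class rose to 2, with Havcr2, when only intervals nearest to the member itself were counted and also when intervals under 500 bp were dropped. Pdcd1, Ctla4, Icos, Lag3, Tigit and Btla kept their class in 10 of 10 settings, Cd274 in 9 (with H3K27me3 at flanks of 20 kb), Tnfrsf9 in 7, Tnfrsf4 in 6 and Havcr2 in 5.

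No paired analysis was possible because the results come from interval positions and from no test. The lists hold no depth or enrichment, so a locus without an interval was not called at the authors' thresholds and is not shown to lack the mark. With 2 replicates described as technical, the spread does not cover separate cultures.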
